A study of Mus musculus with 18 samples.

Results

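The 10 genes Cyp2a4, Cyp2a5, Cyp2a12, Cyp2a22, Cyp2d9, Cyp2d10, Cyp2d22, Cyp2d26, Cyp2f2 and Cyp2j5 were examined in the livers of 18 mice. They were chosen by symbol from a deposited table of 19057 genes, and all 10 were found there. The mice were ICR males sampled at 10 weeks of age, with 3 in each of 6 groups. Con mice received saline. STZ mice received 1 injection of streptozotocin, a compound that destroys insulin-producing beta cells and is used to model type 1 diabetes. A10-FMT and Con-FMT mice received streptozotocin and then oral transplants of small intestinal microbiota, pooled from donor mice given alginate oligosaccharide (AOS) at 10 mg/kg or from control donors. The labels also hold AOS mice, given 10 mg/kg of AOS without STZ, and STZ+AOS mice, given both. The 4 groups with STZ therefore share the injection, and no group had a transplant without STZ. Every value below is in RPKM, read numbers divided by transcript length and by the mapped reads of the library, so levels can be set beside each other between genes. How many reads stand behind a value is unknown. RNA came from whole liver, so fewer cells of a type and less RNA per cell cannot be told apart.

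Cytochrome P450 enzymes sit in the endoplasmic reticulum, hold a heme group and insert oxygen into drugs, steroids, fatty acids and toxins. They take their electrons from P450 oxidoreductase, the product of Por. The CYP2 family is the most varied of them in mice, with rows of near-identical copies on a few chromosomes, and many of its liver genes differ between males and females or between the zones of the liver lobule. Cyp2a5 encodes coumarin hydroxylase, which also acts on nicotine and bilirubin, and Cyp2a4 encodes a testosterone hydroxylase. Cyp2d9 encodes a male-predominant testosterone hydroxylase, Cyp2f2 the enzyme that activates naphthalene, and Cyp2j5 an enzyme that makes epoxides of arachidonic acid.

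Of the 10 genes, 5 lie on chromosome 7, 4 on chromosome 15 and 1 on chromosome 4 (GENCODE positions on GRCm38, the same assembly as the mm10 of the labels). On chromosome 7, Cyp2a4 (chr7:26307169-26315088), Cyp2a5 (chr7:26835305-26843548), Cyp2a22 (chr7:26931631-26939384), Cyp2a12 (chr7:27029081-27037375) and Cyp2f2 (chr7:27119909-27133660) span 826 kb. On chromosome 15, Cyp2d22 (chr15:82370527-82380260), Cyp2d10 (chr15:82402846-82407195), Cyp2d9 (chr15:82433437-82456845) and Cyp2d26 (chr15:82790101-82794294) span 424 kb. Cyp2j5 stands apart at chr4:96628773-96664154. The genes include near copies. The transcripts of Cyp2a4 and Cyp2a5 were 98.2% identical over their alignment, those of Cyp2a12 and Cyp2a22 96.2%, and those of Cyp2d9 and Cyp2d10 91.7%.

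The 3 pairs of near copies are shown by the 250 bases before each RefSeq transcript start (GRCm38.p6), because within each pair the 2 genes share much of this sequence and their RNA levels can be read against it. Each run reads 5′ to 3′ on the strand of the gene, and capitals mark matches on either strand to TATAAA, to the HNF4A-type CAAAGTCC or to the C/EBP-type TTGCNNAA.
Cyp2a4 (chr7:26306942-26307191, plus strand): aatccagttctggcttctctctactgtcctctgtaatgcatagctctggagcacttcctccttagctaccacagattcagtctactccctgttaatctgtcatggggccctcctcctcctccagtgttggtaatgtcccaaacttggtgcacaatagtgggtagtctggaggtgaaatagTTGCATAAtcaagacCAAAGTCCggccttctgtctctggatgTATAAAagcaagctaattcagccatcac
Cyp2a5 (chr7:26835089-26835338, plus strand): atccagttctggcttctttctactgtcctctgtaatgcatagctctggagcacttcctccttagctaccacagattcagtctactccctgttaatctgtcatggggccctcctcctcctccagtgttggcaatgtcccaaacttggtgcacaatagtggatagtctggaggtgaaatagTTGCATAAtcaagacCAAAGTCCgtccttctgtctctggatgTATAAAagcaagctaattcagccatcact
Cyp2a22 (chr7:26939387-26939636, minus strand): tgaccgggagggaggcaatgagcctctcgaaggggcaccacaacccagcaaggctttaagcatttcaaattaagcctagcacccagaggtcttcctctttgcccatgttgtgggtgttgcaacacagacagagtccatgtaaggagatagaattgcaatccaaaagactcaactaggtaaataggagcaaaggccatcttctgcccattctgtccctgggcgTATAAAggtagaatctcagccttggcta
Cyp2a12 (chr7:27028840-27029089, plus strand): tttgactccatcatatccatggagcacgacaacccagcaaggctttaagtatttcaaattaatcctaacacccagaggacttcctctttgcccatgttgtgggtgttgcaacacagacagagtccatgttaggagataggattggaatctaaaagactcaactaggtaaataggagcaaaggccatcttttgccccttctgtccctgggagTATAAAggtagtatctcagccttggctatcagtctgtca
Cyp2d9 (chr15:82452127-82452376, plus strand): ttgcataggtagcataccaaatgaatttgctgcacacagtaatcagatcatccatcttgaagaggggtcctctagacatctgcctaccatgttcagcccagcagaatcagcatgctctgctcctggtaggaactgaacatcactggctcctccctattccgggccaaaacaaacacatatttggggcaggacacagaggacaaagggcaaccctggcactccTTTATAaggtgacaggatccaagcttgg
Cyp2d10 (chr15:82407195-82407444, minus strand): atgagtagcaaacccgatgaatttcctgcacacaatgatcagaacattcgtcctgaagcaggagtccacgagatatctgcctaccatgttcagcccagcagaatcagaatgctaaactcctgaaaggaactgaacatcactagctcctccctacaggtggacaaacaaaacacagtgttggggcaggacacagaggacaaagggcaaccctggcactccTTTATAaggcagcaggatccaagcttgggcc

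The windows of Cyp2a4 and Cyp2a5 were 97.6% identical, those of Cyp2a12 and Cyp2a22 82.8% and those of Cyp2d9 and Cyp2d10 82.3%. Between the pairs Cyp2a4 and Cyp2a5 on one side and Cyp2a12 and Cyp2a22 on the other, identity was 48.1 to 51.1%. A TATAAA match stood 28 bases before the start of Cyp2a4 and 29 bases before that of Cyp2a5. The CAAAGTCC letters stood 55 and 56 bases before the start of these genes, and the TTGCNNAA match 70 and 71 bases before it. None of these motifs overlapped another. Of all 32851 RefSeq windows of the same length, 1.2% held CAAAGTCC, 9.56% held TTGCNNAA and 12.4% held TATAAA. Of the 9 genes with a RefSeq window, CAAAGTCC and TTGCNNAA were found in Cyp2a4 and Cyp2a5 only, and TATAAA in 8, with Cyp2f2 the exception. The STAT5-type TTCNNNGAA (7.02% of all windows) and the Nrf2-type TGACNNNGC (10.2%) were found in none of the 9. The Cyp2d9 window lies inside the wider GENCODE span of that gene. Of the other windows printed, those of Cyp2a4, Cyp2a5, Cyp2a12 and Cyp2d10 reach into the GENCODE span of their genes, and that of Cyp2a22 does not. All distances are counted from the RefSeq start. A match is a run of letters and was not tested as a binding site.

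In untreated liver the 10 genes ranged widely in level. Mean Con levels were 1417 ± 119 RPKM for Cyp2f2 (SD, n = 3), 746 ± 99.0 for Cyp2d9, 571 ± 38.1 for Cyp2d10, 389.8 ± 63.8 for Cyp2d26 and 269.6 ± 62.0 for Cyp2a12. They were 236 ± 23.8 for Cyp2j5, 118 ± 5.12 for Cyp2d22, 98.4 ± 55.0 for Cyp2a5, 2.86 ± 2.42 for Cyp2a4 and 1.45 ± 0.511 for Cyp2a22. In this order the mice overlapped between Cyp2a12 and Cyp2j5, between Cyp2d22 and Cyp2a5, and between Cyp2a4 and Cyp2a22, and the other neighbours were separate. The order changed in STZ liver. Cyp2a5 moved from the eighth to the first place, at 3909.7 ± 2810.3 RPKM, and its lowest STZ mouse lay above the highest Cyp2f2 value of that group. Cyp2a4 moved from the ninth to the fifth place, at 469 ± 516 RPKM. From the second place to the sixth (Cyp2f2, Cyp2d26, Cyp2d10, Cyp2a4, Cyp2d9) each STZ neighbour overlapped the next. Cyp2a5 was also first in STZ+AOS and, overlapping Cyp2f2, in A10-FMT. It was second in Con-FMT and eighth in AOS.

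**Figure D1:**
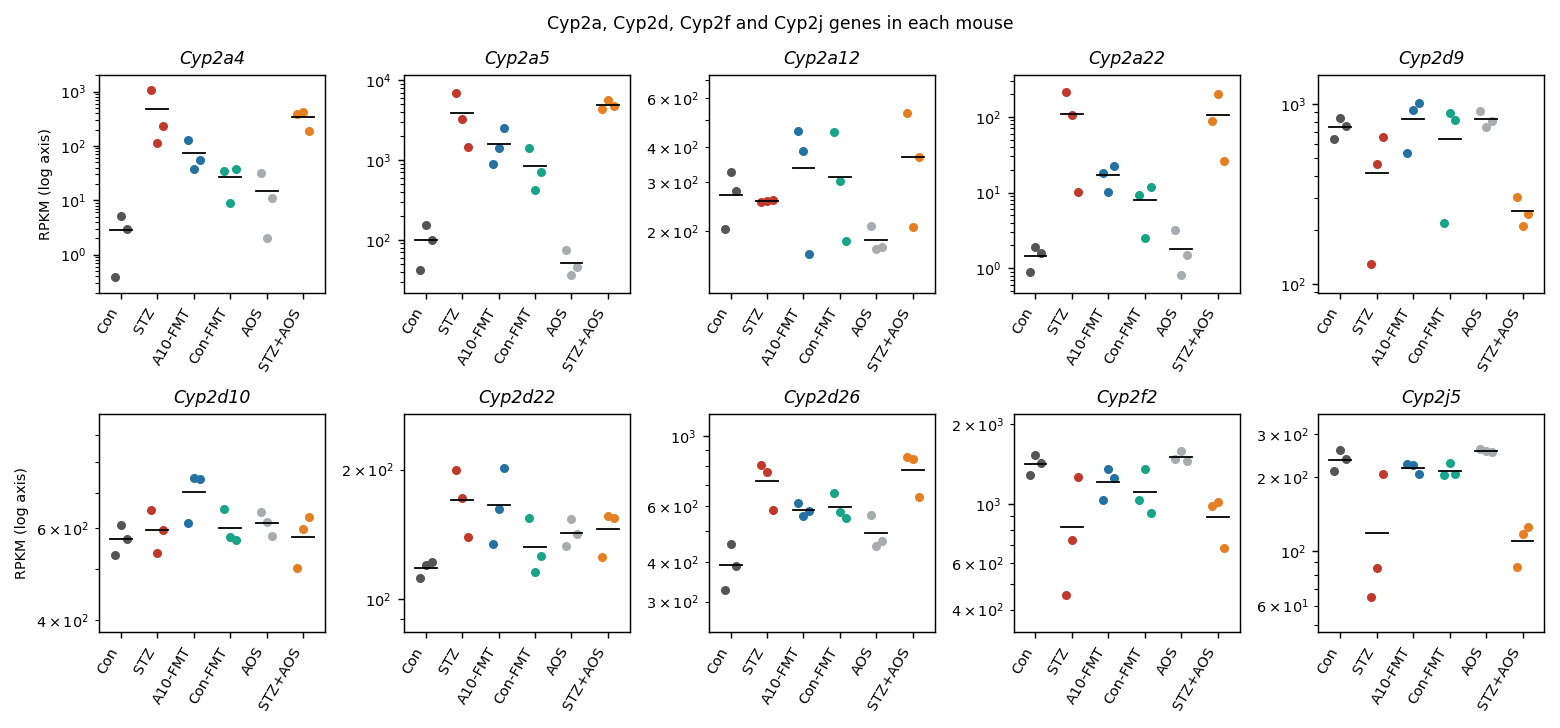
RPKM of each of the 10 genes on log axes whose range differs by gene, with 1 point per mouse, the group mean as a bar and 3 mice in each of the 6 groups. By group mean, Cyp2a4, Cyp2a5 and Cyp2a22 are highest in STZ and STZ+AOS and take intermediate places in A10-FMT and Con-FMT. Cyp2j5 is lowest by group mean in STZ and STZ+AOS, and single mice depart from this order.

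The first comparison asked how STZ changed these genes. Cyp2a5, Cyp2a4 and Cyp2a22 rose by a wide margin, Cyp2d26 and Cyp2d22 rose by a narrow one, and Cyp2j5 and Cyp2f2 fell. In all, 7 of the 10 genes were called in STZ against Con (limma, Benjamini-Hochberg adjusted p under 0.05), 5 higher and 2 lower. Over all 10602 genes tested, 38.5% were called, 33% higher and 5.52% lower. The 3 genes not called were Cyp2d9, Cyp2d10 and Cyp2a12. The same 7 genes were those whose Con and STZ mice did not overlap, against 47.7% of all genes. The median log2 change of the 10 genes was 0.28, beside 0.21 over all genes tested.

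Cyp2a5 stood at 42.4, 152 and 100.3 RPKM in the 3 Con mice and at 6981, 3282 and 1466 RPKM in the 3 STZ mice. Every STZ mouse was far above every Con mouse, and STZ mouse 1 was the highest of all 18. Its mean rose 39.7-fold, and the log2 change on the log2(RPKM + 1) scale was 5.20 ± 0.65 (SE; limma, Benjamini-Hochberg adjusted p = 0.000478). Cyp2a5 took 0.00526 to 0.0203% of the summed RPKM of a Con liver and 0.214 to 1.07% of that of an STZ liver. By level it ranked between 535 and 1301 among all genes in Con mice and between 8 and 55 in STZ mice. Of the summed level of the 10 genes it made up 1.26 to 3.55% in Con and 27.1 to 64.6% in STZ.

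Cyp2a4 stood at 0.38, 5.21 and 2.99 RPKM in Con and at 1061, 113 and 232 RPKM in STZ. The groups were far apart, and the STZ mice spread 9.37-fold among themselves. The mean rose 164-fold, with a log2 change of 6.55 ± 0.84 (adjusted p = 0.000546 by limma). The scale understates the change of a gene so low in controls. With 0.1 in place of 1 added before the logarithm, the log2 change was 7.25 for Cyp2a4 and 5.36 for Cyp2a22, beside 5.22 for Cyp2a5. The ratio of Cyp2a5 to Cyp2a4 was 29.3 to 112 in Con and 6.32 to 29.0 in STZ.

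These 2 genes share stretches of sequence, and a read that lies within one cannot be assigned to either gene. Of all 50-base stretches of the Cyp2a4 transcript, 36.1% also occurred in Cyp2a5, and 31% of those of Cyp2a5 occurred in Cyp2a4. How the authors' counting divided such reads was not tested, so the separate levels of the 2 genes are uncertain. Whether shared reads were counted for both genes, for one or for neither is not given in the sources used here, and its part in the sum of both genes was not tested. With both added to 1 value, the log2 change was 5.32 (adjusted p = 0.000452) in STZ against Con.

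Cyp2a22 stood at 0.89, 1.89 and 1.57 RPKM in Con and at 210.03, 105.9 and 10.1 RPKM in STZ. All STZ mice were higher than all Con mice, and STZ mouse 3 lay far below the other 2. The log2 change was 4.71 ± 0.87 (limma, adjusted p = 0.00256). Cyp2a12, the near copy of Cyp2a22 and itself a steroid hydroxylase gene, stood at 203, 326 and 279 RPKM in Con and at 254.5, 256 and 258 RPKM in STZ. The Cyp2a12 values of STZ mice lay inside the Con range, and the log2 change was -0.05 with a 95% interval from -0.88 to 0.79. Of the 50-base stretches of Cyp2a22, 25.7% also occurred in Cyp2a12. The part of such shared reads in the Cyp2a22 values was not tested.

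Among the Cyp2d genes the changes were smaller and unequal. Cyp2d26 stood at 327, 455 and 387 RPKM in Con and at 807, 769.6 and 583 RPKM in STZ. Its groups did not overlap, with a 1.85-fold higher mean and a log2 change of 0.88 ± 0.16 (limma, adjusted p = 0.00262). Cyp2d22, the mouse gene often set beside human CYP2D6, stood at 112, 120.02 and 122 RPKM in Con and at 199, 172 and 139.8 RPKM in STZ. Its groups were separate by a small gap. Its log2 change of 0.51 ± 0.17 passed the threshold (adjusted p = 0.0366) but not when libraries were scaled by their median ratio (0.24, adjusted p = 0.233).

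Cyp2d9 stood at 640.05, 836 and 760.2 RPKM in Con and at 128, 464 and 652 RPKM in STZ. STZ mouse 3 fell inside the Con range and mouse 1 far below it, and the log2 change of -1.13 ± 0.61 did not pass (adjusted p = 0.163). Cyp2d10, its near copy, stood between 532 and 608 RPKM in Con and between 537 and 650.2 RPKM in STZ. The log2 change of Cyp2d10 was 0.06, with a 95% interval from -0.24 to 0.35. Of its 50-base stretches, 40.5% also occurred in other genes, most of them in Cyp2d11.

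Cyp2f2 and Cyp2j5 fell. Cyp2j5 stood at 211, 259 and 237 RPKM in Con and at 65.1, 85.1 and 207 RPKM in STZ. STZ mice 1 and 2 were far below the Con mice and mouse 3 was just below them. The log2 change was -1.16 ± 0.31 (limma, adjusted p = 0.0151), and the STZ mean was 50.5% of the Con mean. Cyp2f2 stood at 1291, 1528 and 1429.99 RPKM in Con and at 454, 729 and 1266 RPKM in STZ. Here too mouse 3 lay just under the lowest Con mouse. The log2 change of Cyp2f2 was -0.92 ± 0.30 (adjusted p = 0.0348), and its mean was 57.6% of that in Con.

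The summed level of the 10 genes was 3361 to 4292 RPKM in Con and 5408 to 10811 RPKM in STZ. Without Cyp2a4 and Cyp2a5 the sum of the other 8 was 3318 to 4134 RPKM in Con and 2768 to 3710 RPKM in STZ, and these ranges overlapped.

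**Figure D2:**
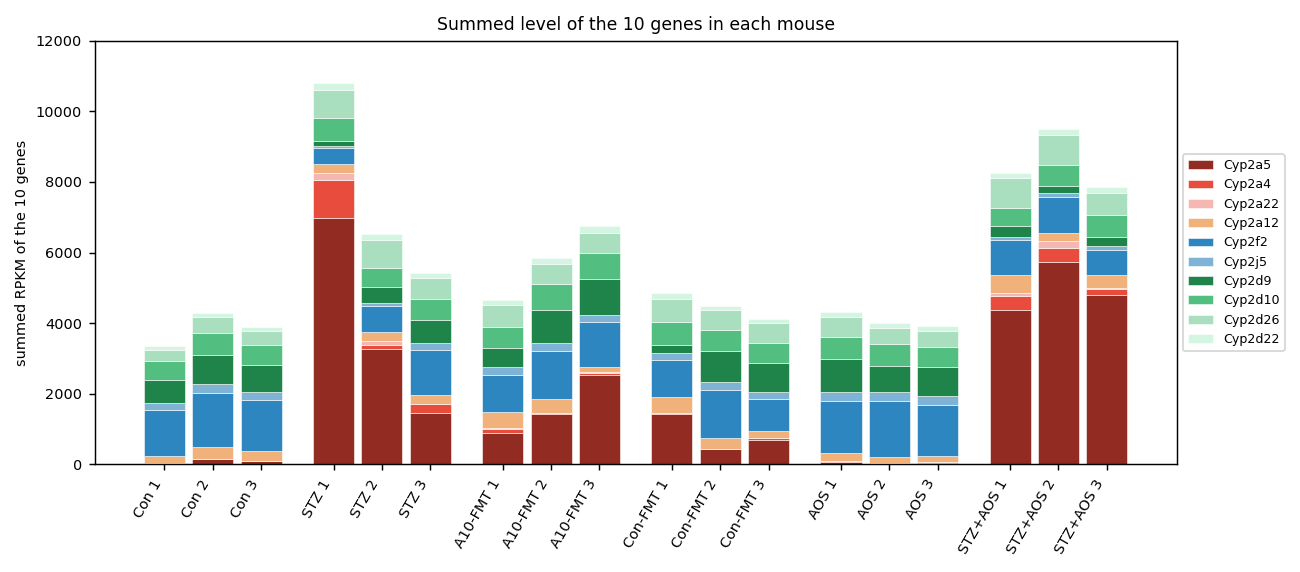
Summed RPKM of the 10 genes in each of the 18 mice, with 1 stacked bar per mouse and 1 colour per gene. Cyp2a5 takes 27.1 to 64.6% of the bar in the 3 STZ mice and 1.26 to 3.55% in the 3 Con mice, while the sum of the 8 genes other than Cyp2a4 and Cyp2a5 overlaps between these groups.

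Along chromosome 7 the direction differed between neighbours. Of 12 genes of the table in the 826 kb stretch from Cyp2a4 to Cyp2f2, 6 passed the filter on low values. Of these, Cyp2a4, Cyp2g1, Cyp2a5 and Cyp2a22 were higher in STZ, Cyp2a12 was not called and Cyp2f2 was lower. Cyp2g1, a P450 gene best known from the olfactory mucosa, stood at 0.14 to 0.32 RPKM in Con and 1.49 to 6.05 RPKM in STZ (log2 change 1.78, adjusted p = 0.00285). Cyp2a22 and Cyp2a12 are 89.7 kb apart, and Cyp2a12 and Cyp2f2 82.5 kb. The genes that did not pass the filter were 3 Nlrp genes, Vmn1r185, Cyp2b19 and Cyp2b23.

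**Figure D3:**
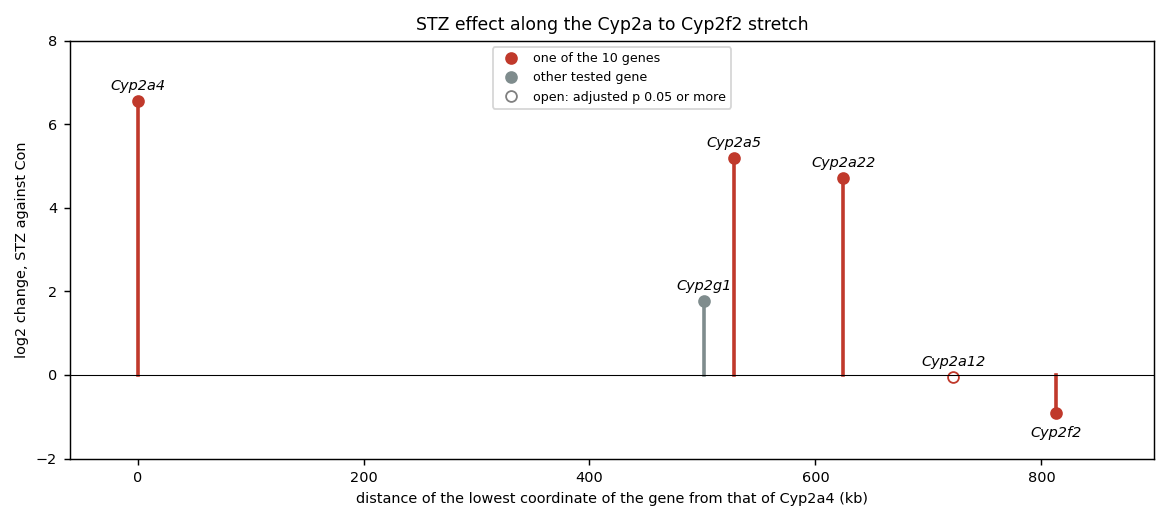
Log2 change in STZ against Con of the 6 tested genes between Cyp2a4 and Cyp2f2, against the distance of the lowest coordinate of each gene from that of Cyp2a4 in kb. Filled points passed an adjusted p of 0.05. Changes run from 6.55 at Cyp2a4 through -0.05 at Cyp2a12 to -0.92 at Cyp2f2.

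The second comparison set STZ+AOS against AOS, 6 mice that do not include the Con or STZ mice. All 6 groups shared 1 estimate of the spread in this fit of 18 libraries. Of the 10 genes, 7 were called, 4 higher (Cyp2a5, Cyp2a4, Cyp2a22 and Cyp2d26) and 3 lower (Cyp2d9, Cyp2j5 and Cyp2f2), against 37.9% of all 10822 genes (31.8% higher and 6.11% lower). Groups did not overlap for 7 of the 10 genes, against 49.1% of all genes. Cyp2d22, Cyp2d10 and Cyp2a12 were not called.

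Cyp2a5 stood at 73.5, 36.4 and 45.9 RPKM in AOS and at 4369, 5718 and 4788 RPKM in STZ+AOS. The STZ+AOS mice lay close together, with a spread of 1.31-fold against 4.76-fold among the STZ mice. The log2 change was 6.60 ± 0.58 (limma, adjusted p = 5.49e-06). Cyp2a4 stood at 31.1, 1.99 and 10.8 RPKM in AOS and at 388, 419.8 and 190.49 RPKM in STZ+AOS. The groups were separate, and the log2 change was 4.92 ± 0.90 (adjusted p = 0.00111). With Cyp2a4 and Cyp2a5 added to 1 value it was 6.40.

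Cyp2a22 stood at 3.16, 0.81 and 1.5 RPKM in AOS and at 88.7, 202 and 26.2 RPKM in STZ+AOS (log2 change 4.90 ± 0.88, adjusted p = 0.000971 by limma). As in the STZ group, all mice of the injected group were higher and they differed widely among themselves. Cyp2d26 stood at 562, 449 and 466 RPKM in AOS and at 859, 842 and 642 RPKM in STZ+AOS, without overlap. Its log2 change was 0.66 ± 0.17 (adjusted p = 0.00682).

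Cyp2d9, which had not passed in STZ against Con, stood at 917, 747 and 801 RPKM in AOS and at 305, 211 and 244 RPKM in STZ+AOS. All STZ+AOS mice lay far below all AOS mice, and the log2 change was -1.71 ± 0.53 (limma, adjusted p = 0.0207). Cyp2j5 stood at 254 to 259.9 RPKM in AOS and at 85.9 to 126 RPKM in STZ+AOS, a log2 change of -1.24 ± 0.28 (adjusted p = 0.00412). Cyp2f2 stood at 1458 to 1583 RPKM in AOS and at 684 to 1017 RPKM in STZ+AOS, a log2 change of -0.77 ± 0.28 (adjusted p = 0.0401).

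Cyp2d10 had a log2 change of -0.09 in STZ+AOS against AOS, with a 95% interval from -0.36 to 0.18. With libraries scaled by their median ratio it was lower, by a log2 change of -0.34 that passed narrowly (adjusted p = 0.0481). Cyp2d22 had a log2 change of 0.02, from 133 to 153 RPKM in AOS and from 126 to 156 RPKM in STZ+AOS. Cyp2a12 stood at 209, 173 and 175 RPKM in AOS and at 531, 207 and 371 RPKM in STZ+AOS. One STZ+AOS mouse lay within the AOS range and 2 above it, and the log2 change of 0.89 did not pass (adjusted p = 0.0788).

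Whether the STZ effect differed between mice with and without AOS was tested as an interaction. Limma called 0 of the 10 genes, of which 1 had an unadjusted p under 0.05, and 0% of the 10822 genes. That gene was Cyp2d22, with a difference of -0.49 on the log2 scale (limma, adjusted p = 0.856). For Cyp2a5 the STZ effect was 1.40 larger on the log2 scale with AOS, with a 95% interval from -0.33 to 3.13. For Cyp2a12 the difference was 0.94, with an interval from -0.22 to 2.10. These intervals are wide, so differences of that size cannot be told from none with 3 mice a group.

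**Figure D4:**
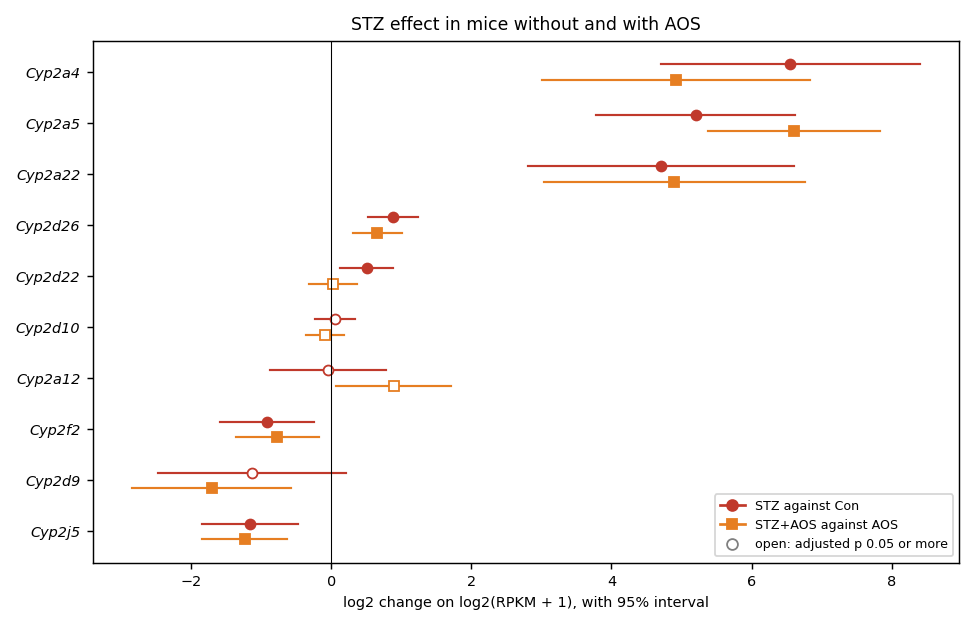
Log2 change of the 10 genes on log2(RPKM + 1) in STZ against Con (circles) and STZ+AOS against AOS (squares), with 95% intervals from limma. Filled symbols passed an adjusted p of 0.05. Cyp2a4, Cyp2a5 and Cyp2a22 lie between 4.71 and 6.60, and the remaining genes between -1.71 and 0.89.

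AOS itself called none of the 10 genes. In AOS against Con, limma called 0 of 10 and none had an unadjusted p under 0.05. The share of all genes called was 0.00924%. In STZ+AOS against STZ, limma again called 0 of 10, with none at an unadjusted p under 0.05 and 0% of all genes called. Cyp2d22 was the only one of the 10 whose groups did not overlap in AOS against Con (133 to 153 against 112 to 122 RPKM), higher in AOS. Of all genes, 24.4% did not overlap in either direction and 19.1% were higher in AOS without overlap. The log2 change of Cyp2a5 was -0.79 in AOS against Con, with an interval from -2.02 to 0.44, and 0.61 in STZ+AOS against STZ, with an interval from -0.62 to 1.84.

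The transplants were then compared with STZ alone. In the means, Cyp2a4, Cyp2a5 and Cyp2a22 lay between Con and STZ in both transplant groups, and Cyp2j5 (92.7 and 90.3% of the Con mean) and Cyp2f2 (85.8 and 78.1%) lay nearer to Con than STZ did. With all 3 STZ mice, no gene of the 10 was called in either comparison. Limma called 0 of 10 in A10-FMT against STZ, where 3 had an unadjusted p under 0.05 and 0.226% of all genes were called. It called 0 of 10 in Con-FMT against STZ, where 4 had an unadjusted p under 0.05 and 0.00943% of all genes were called. Both comparisons use the same 3 STZ mice.

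Cyp2a5 stood at 880.03, 1414 and 2529 RPKM in A10-FMT and at 1419.6, 427 and 698 RPKM in Con-FMT. The A10-FMT mice overlapped the STZ mice, and the Con-FMT mice lay below the lowest of them, mouse 1 by little and mice 2 and 3 by a wide margin. The log2 change against STZ was -1.14 ± 0.65 in A10-FMT (limma, adjusted p = 0.337) and -2.10 ± 0.65 in Con-FMT (adjusted p = 0.122). Cyp2a4 stood at 130.02, 37.4 and 53.9 RPKM in A10-FMT and at 35.2, 8.86 and 37.8 RPKM in Con-FMT. One A10-FMT mouse overlapped the STZ mice and no Con-FMT mouse did. Its log2 change against STZ was -2.23 ± 0.84 in A10-FMT (adjusted p = 0.178) and -3.67 ± 0.84 in Con-FMT (adjusted p = 0.0751).

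Cyp2a22 stood at 18.2, 10.2 and 22.3 RPKM in A10-FMT and at 9.23, 2.5 and 11.95 RPKM in Con-FMT. STZ mouse 3, at 10.1 RPKM, lay below all A10-FMT mice and inside the Con-FMT range. Cyp2j5 stood at 206 to 226 RPKM in A10-FMT and at 204 to 228 RPKM in Con-FMT, close together and level with the lowest Con mouse. STZ mouse 3, at 207 RPKM, was in their range, while STZ mice 1 and 2 were far below it. The log2 change of Cyp2j5 against STZ was 1.05 ± 0.31 in A10-FMT (limma, adjusted p = 0.114) and 1.01 ± 0.31 in Con-FMT (adjusted p = 0.124).

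Cyp2f2 stood at 1035, 1362 and 1250.1 RPKM in A10-FMT and at 1039, 1357 and 924 RPKM in Con-FMT. Cyp2d9 stood at 534, 933 and 1014 RPKM in A10-FMT and at 218, 888 and 815 RPKM in Con-FMT. For Cyp2f2, STZ mouse 3 lay within the transplant values and mice 1 and 2 below them. For Cyp2d9, mice 2 and 3 lay within them and mouse 1 below. Cyp2d26 stood at 556 to 615 RPKM in A10-FMT and at 548 to 662 RPKM in Con-FMT, again with STZ mouse 3 inside and mice 1 and 2 above. Cyp2d22 stood at 134 to 201 RPKM in A10-FMT and at 115 to 154 RPKM in Con-FMT. Cyp2d10 stood at 613 to 746 RPKM in A10-FMT and at 569 to 652 RPKM in Con-FMT. Cyp2a12 stood at 165 to 459 RPKM in A10-FMT and at 185 to 455 RPKM in Con-FMT, the widest spread of these 3. Groups overlapped for all 10 genes in A10-FMT against STZ, where 21.5% of all genes did not overlap. In Con-FMT against STZ they did not overlap for Cyp2a4 and Cyp2a5, both lower, against 17.7% of all genes in either direction and 9.38% lower.

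The counts against STZ rested on STZ mouse 3. Of the 3 STZ mice it was the nearest to the Con mean for 9 of the 10 genes and within the range of the 6 transplanted mice for 9. STZ mouse 1 was within that range for 3 genes and STZ mouse 2 for 4. These counts include Cyp2a12, whose STZ mice stood at 254.5, 256 and 258 RPKM, all within that range. Such counts were not taken over all genes. Each STZ mouse was left out in turn, and without mouse 1 or mouse 2 the counts stayed at 0 of 10 in both comparisons. In A10-FMT against STZ the calls over all genes were 113 without mouse 1 and 0 without mouse 2. In Con-FMT against STZ they were 0 in both fits. Mouse 3 was singled out from these same values, and leaving out the STZ mouse nearest to the transplanted mice moves STZ away from them by construction. The counts without it therefore describe how far the result rests on 1 mouse and are no test of a transplant effect. Without it, 3 of the 10 genes were called in A10-FMT against STZ, against 12.7% of all genes (3.78% higher and 8.91% lower). Cyp2a22 was lower (log2 change -3.13, adjusted p = 0.00514), and Cyp2j5 (1.54, adjusted p = 0.00018) and Cyp2f2 (1.07, adjusted p = 0.0150) were higher. In Con-FMT against STZ 5 were called, against 15.5% of all genes (5.62% higher and 9.84% lower). Cyp2a4 (-3.86), Cyp2a5 (-2.67) and Cyp2a22 (-4.28) were lower, and Cyp2j5 (1.50) and Cyp2f2 (0.92) were higher. In STZ against Con, 7 of the 10 were called with this mouse left out too, against 47.4% of all genes. Without STZ mouse 1 or without STZ mouse 2, 4 were called in STZ against Con, since Cyp2j5, Cyp2f2 and Cyp2d22 no longer passed. The calls over all genes were 3187 without mouse 1 and 2630 without mouse 2, beside 4087 with all mice. Without any one of the Con mice, Cyp2f2 and Cyp2d22 no longer passed. The calls over all genes were then 2562 without Con mouse 1, 3472 without mouse 2 and 2735 without mouse 3.

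**Figure D5:**
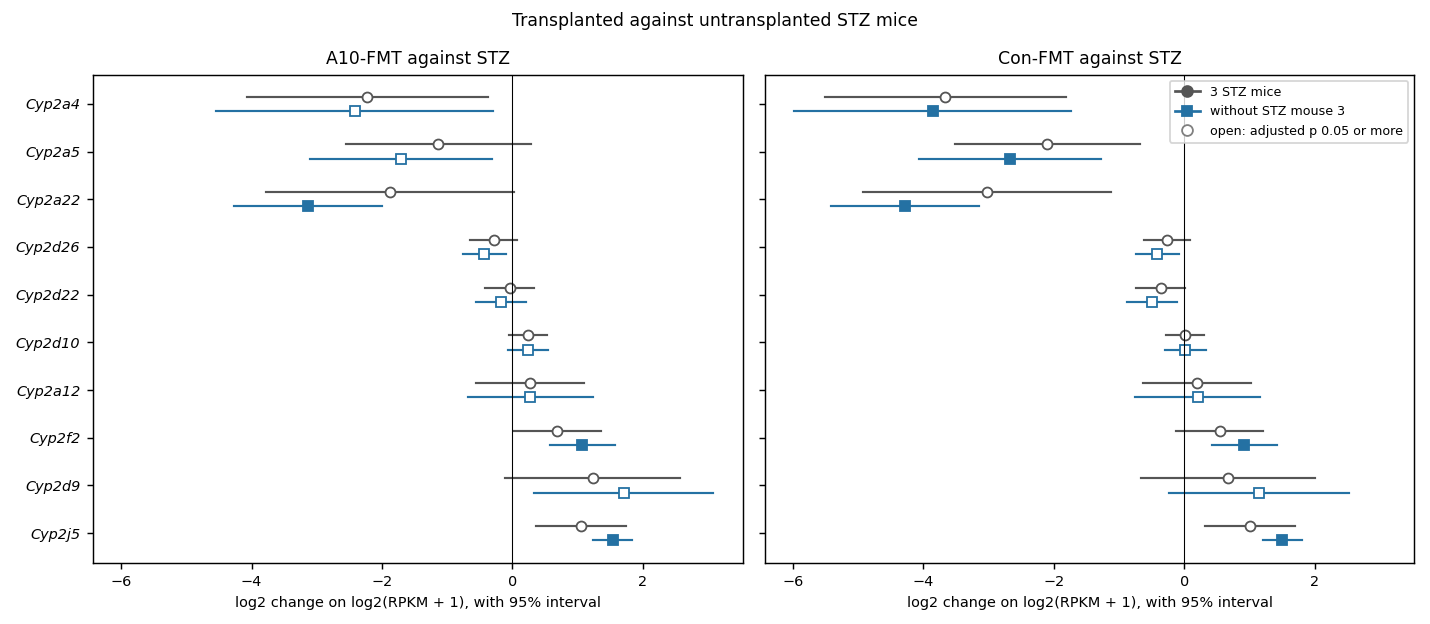
Log2 change of the 10 genes in A10-FMT against STZ (left) and Con-FMT against STZ (right), with 95% intervals from limma, for all 3 STZ mice (circles) and without STZ mouse 3 (squares). Filled symbols passed an adjusted p of 0.05. No circle is filled, and the filled squares number 3 on the left and 5 on the right, after an omission chosen from these same values.

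Transplanted mice were also compared with Con, where the same 3 Con mice serve both comparisons. In A10-FMT against Con, 4 of the 10 genes were called, all higher, against 18.4% of all genes called and 15.9% called higher. Cyp2a5 had a log2 change of 4.06 ± 0.65 (limma, adjusted p = 0.00342), Cyp2a4 of 4.33 ± 0.84 (adjusted p = 0.00872), Cyp2a22 of 2.83 ± 0.87 (adjusted p = 0.0433) and Cyp2d26 of 0.59 ± 0.16 (adjusted p = 0.0310). The mean of Cyp2a5 was 16.3 times the Con mean. The calls of Cyp2a22 and Cyp2d26 were lost, to leave 2, without Con mouse 1, Con mouse 3 or any single A10-FMT mouse. Without Con mouse 2 the call of Cyp2a22 was lost. The calls over all genes fell too, from 1953 to between 547 and 1468 with 1 mouse left out.

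In Con-FMT against Con, 3 were called, all higher, against 19.4% of all genes called and 17.5% called higher. Cyp2a5 had a log2 change of 3.10 ± 0.65 (limma, adjusted p = 0.0114), Cyp2a4 of 2.89 ± 0.84 (adjusted p = 0.0366) and Cyp2d26 of 0.62 ± 0.16 (adjusted p = 0.0263). Cyp2a22 stood at a log2 change of 1.68 and did not pass (adjusted p = 0.182), though it did with only the libraries of those groups in the fit (adjusted p = 0.0385). The count of 3 fell to 0 without Con mouse 1 or Con-FMT mouse 1, and to 1 without Con mouse 3 or Con-FMT mouse 3. The calls over all genes fell too, from 2059 to 615 without Con mouse 1 and 603 without Con-FMT mouse 1. They were 705 without Con mouse 3 and 1001 without Con-FMT mouse 3. Cyp2j5 and Cyp2f2, which had fallen in STZ, were not called in either comparison. The 95% interval of Cyp2j5 ran from -0.79 to 0.58 in A10-FMT and from -0.83 to 0.55 in Con-FMT.

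A10-FMT and Con-FMT were not told apart on these genes. Limma called 0 of 10, and 0 with the mouse number as a block, none had an unadjusted p under 0.05, and 0% of all genes were called. Cyp2a5 was 0.96 higher on the log2 scale in A10-FMT, with an interval from -0.45 to 2.38, and Cyp2a4 1.44 higher, with an interval from -0.41 to 3.29. Mice of the transplant groups overlapped for all 10 genes, while 8.92% of all genes did not overlap.

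Genes around these enzymes were read from lists, each beside the shares over all genes, which were 33% higher and 5.52% lower in STZ against Con and 31.8% higher and 6.11% lower in STZ+AOS against AOS. Of 20 relatives of the 10 genes (other Cyp2d, Cyp2j, Cyp2g and Cyp2 genes), 18 were in the table and 9 passed the filter. In STZ against Con 2 of the 9 rose and 4 fell, with a median log2 change of -0.05. Cyp2u1, which acts on long-chain fatty acids, fell by 2.29 on the log2 scale (limma, adjusted p = 0.00268), Cyp2d40 fell by 0.61 (adjusted p = 0.00935), and Cyp2g1 rose as given above. Cyp2e1, the ethanol-oxidizing P450, stood at 1755 to 2572 RPKM in Con and 3136 to 4760 RPKM in STZ (log2 change 0.82, adjusted p = 0.0228). In STZ+AOS against AOS 1 relative rose and 5 fell.

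Electron supply and heme supply came next. Of 15 genes, 4 rose and 2 fell in STZ against Con, and 5 rose and 5 fell in STZ+AOS against AOS. The 6 of 15 called in STZ against Con are near the 38.5% of all genes called, so that count says nothing particular to the list. In STZ+AOS against AOS 10 of 15 were called, against 37.9% of all genes, and the 5 that fell stand beside 6.11% of all genes. No difference between the list and all genes was tested. Por stood at 37.6, 43.6 and 40.9 RPKM in Con and at 552, 447 and 187 RPKM in STZ, with STZ mouse 3 again the lowest of its group. The log2 change of Por was 3.11 ± 0.35 (limma, adjusted p = 0.000342), and 3.40 in STZ+AOS against AOS. Alas1, which encodes the first enzyme of heme synthesis, stood at 24.9 to 82.1 RPKM in Con and 153 to 193 RPKM in STZ (log2 change 1.89, adjusted p = 0.00564). Fech, which inserts the iron into heme, rose by 0.76 (adjusted p = 0.000624).

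Of 24 transcription factors known to act on one or more of the 10 genes, 13 rose and none fell in STZ against Con, and 10 rose and none fell in STZ+AOS against AOS. Their median log2 change in STZ against Con was 0.52, beside 0.21 over all genes. Nfe2l2, which encodes Nrf2, stood at 23.3 to 25.9 RPKM in Con and 38.9 to 45.8 RPKM in STZ (log2 change 0.77, adjusted p = 0.000831 by limma). Hnf4a, a hepatocyte nuclear receptor gene, stood at 102 to 109 RPKM in Con and 172 to 190.4 RPKM in STZ (0.75, adjusted p = 0.00102). Ppargc1a, which encodes a coactivator of the fasting response, rose by 1.86 (adjusted p = 0.00105). Nr1i3, which encodes the drug-sensing receptor CAR, stood at 32.3 to 61.1 RPKM in Con and 78.9 to 209 RPKM in STZ (1.48, adjusted p = 0.00465). In STZ+AOS against AOS the log2 change of Nr1i3 was 0.66 and did not pass (adjusted p = 0.12).

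Liver genes known for a sex bias were read in the same way. All 17 male-predominant genes listed fell in STZ against Con, with a median log2 change of -3.68, among them Serpina12 (-3.59, adjusted p = 1.88e-05), Elovl3 (-6.48) and C6 (-3.68). Of 14 tested female-predominant genes, 13 rose and none fell, with a median of 4.26, among them Slco1a4 (4.18), Cyp2b9 (5.71) and Abcd2 (2.94). In STZ+AOS against AOS 16 of 17 male-predominant genes fell, and 13 of 16 tested female-predominant genes rose. Of the 10 genes, Cyp2d9 is the one described here as male-predominant. Its log2 change was -1.13 without AOS, where it did not pass, and -1.71 with AOS, where it did. The sex bias of the other genes was not examined here, among them Cyp2a4, which rose by 6.55 without AOS and 4.92 with AOS.

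Lists of the lobule zones followed. Of 13 periportal genes, 10 rose and 1 fell in STZ against Con (median 1.02), and of 15 pericentral genes, 8 rose and 1 fell (median 0.43). Over all genes 33% rose and 5.52% fell, with a median of 0.21, and no difference between the 2 lists and all genes was tested. Etnppl (3.68), Gls2 (1.52) and Cps1 (1.37) had the smallest adjusted p of the periportal genes that rose, and Oat (3.39), Lhpp (2.26) and Aldh3a2 (2.02) of the pericentral ones. Gls2, Cps1 and Oat act in amino acid and nitrogen metabolism. Glul, the pericentral glutamine synthetase, stood at 167 to 186 RPKM in Con and 199 to 340.2 RPKM in STZ (0.47, adjusted p = 0.0443). Cyp2f2, which is known from the periportal zone, fell, and Cyp2a5, known from the pericentral zone, rose. In STZ+AOS against AOS, 8 of 13 periportal genes rose and 1 fell (median 0.90). Of the 15 pericentral genes, 5 rose and 1 fell there (median 0.21). Over all genes 31.8% rose and 6.11% fell in that comparison, with a median of 0.21, so the pericentral values stood near those of all genes.

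Features of the libraries stand beside these results. Summed RPKM was 749557 to 806937 in Con and 631126 to 684659 in STZ, and scaling each library by its median ratio moved the median log2 change of all genes from 0.21 to -0.01 in STZ against Con. Relative to that shift, Cyp2a5 stood at 4.93, Cyp2a4 at 6.36, Cyp2a22 at 4.51, Cyp2d26 at 0.61, Cyp2j5 at -1.43 and Cyp2f2 at -1.19, all called. The 4 of 5 hepatocyte markers in the table (Ttr, Apoa1, Cps1 and Alb) summed to 32999 to 54162 RPKM over all livers. Their sums overlapped between Con (36277 to 54162 RPKM) and STZ (32999 to 46000 RPKM). Between AOS (46406 to 52846 RPKM) and STZ+AOS (33312 to 40771 RPKM) they did not overlap and were lower in STZ+AOS. Cps1, which rose in STZ against Con, is part of these sums. Summed stellate cell and fibroblast markers (4 of 4) were 65.8 to 77.1 RPKM in Con, 104 to 124 RPKM in STZ and 127 to 149 RPKM in STZ+AOS. Kupffer cell markers summed to 49.5 to 76.7 RPKM in Con and 71.2 to 128 RPKM in STZ. Lung markers summed to at most 2.66 RPKM and kidney markers to at most 5.23 RPKM in any library, while exocrine pancreas markers reached 31.9 RPKM in 1 STZ+AOS mouse. The part of these cell types in the changes of the 10 genes was not tested.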

How the data were processed

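Liver RNA sequencing of 18 mice was read from 1 deposited table of gene symbols and libraries. Per the methods of the study, the authors enriched mRNA with oligo(dT), sequenced on an Illumina HiSeq, mapped reads with SOAPaligner and turned the read number of each gene into RPKM. The submitters' processing notes name mm10 and Bowtie 0.12.2, without their roles. The deposited RPKM values were used without further scaling. A gene entered a fit when 3 or more of its libraries reached 1 RPKM, and 1 was added before log2. All 10 genes passed. The model was limma's (version 3.58.1, R 4.3.3), with a mean per group and a mean-variance trend, on the 4 groups of the study (12 libraries, 10602 genes) or on all 6 groups (18 libraries, 10822 genes), two-sided, with Benjamini-Hochberg adjustment over all genes of a contrast. The script was tested on simulated data. The 10 genes and the gene lists were chosen with earlier results of these data known, so neither is independent evidence. Named genes were all 10, of each list the 3 called by STZ against Con at the lowest adjusted p, and Por, Alas1, Nr1i3, Hnf4a, Nfe2l2, Cyp2e1 and Glul. Cyp2g1 is named by that rule and by its place on chromosome 7. Promoter windows and motif shares came from RefSeq, and positions and transcripts from GENCODE. Each library is 1 mouse by its label, and RPKM gives no depth, so no counting interval could be given.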

Additional observations from a re-analysis of the deposited data

How the results depend on the processing

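The number of the 10 genes called was recomputed under each alternative. In STZ against Con it was 7, and 4 with only the libraries of those groups in the fit, where Cyp2j5 and Cyp2f2 were lost. The calls over all genes were 4087, and 2651 with those libraries only. Cyp2d22 no longer passed under median-ratio scaling, without the filter on low values, with those libraries only, and with a replicate block, and Cyp2f2 did not pass without the filter. In A10-FMT against Con the number of the 10 genes called was 4. It was 2 under median-ratio scaling, 2 without the filter and 2 with the replicate block, since Cyp2a22 and Cyp2d26 no longer passed. With only those groups it was 5, where Cyp2d22 passed (limma, adjusted p = 0.0395). The calls over all genes were 1953, and 1163 under median-ratio scaling, 1331 without the filter, 1441 with the replicate block and 3355 with only those groups. In Con-FMT against Con the number of the 10 genes called was 3, and 1 under median-ratio scaling. It was 2 without the filter, where Cyp2a4 was lost (limma, adjusted p = 0.0986), and 4 with only those groups, where Cyp2a22 passed (adjusted p = 0.0385). The calls over all genes were 2059, and 872 under median-ratio scaling, 1453 without the filter and 2128 with only those groups. No direction reversed under any alternative run for a gene that was called. Adding 0.1 in place of 1, leaving out the trend, using all 6 groups and summing Cyp2a4 with Cyp2a5 changed no call of the 10 genes. Leaving out each mouse in turn gave 4 to 7 genes in STZ against Con, 0 to 3 in A10-FMT against STZ, 0 to 5 in Con-FMT against STZ, 2 to 3 in A10-FMT against Con, 0 to 3 in Con-FMT against Con and 5 to 7 in STZ+AOS against AOS. It gave 0 in the other 4 contrasts. The calls over all genes moved in the same fits. They ran from 2562 to 5012 in STZ against Con, 0 to 1343 in A10-FMT against STZ and 0 to 1636 in Con-FMT against STZ. They ran from 547 to 1468 in A10-FMT against Con, 603 to 2096 in Con-FMT against Con and 2767 to 4045 in STZ+AOS against AOS. An arm left with 2 mice is assumed to vary like the other groups. In STZ+AOS against AOS, Cyp2d9 no longer passed without AOS mouse 1, AOS mouse 3 or STZ+AOS mouse 2, Cyp2f2 no longer passed without any one AOS mouse or without STZ+AOS mouse 3, and Cyp2a12 passed without STZ+AOS mouse 2 (log2 change 1.26). No label ties same-numbered mice to a shared litter, batch or day, and 16 of 45 pairs of same-numbered mice had a correlation of deviations over 0.1 (range -0.25 to 0.47). All 3 pairs exceeded 0.1 only between A10-FMT and Con-FMT (0.12, 0.29 and 0.18), where the replicate block also called 0 genes. With the replicate block, 7 of the 10 genes were called in STZ against Con, with Cyp2d9 added (limma, adjusted p = 0.0360) and Cyp2d22 lost. Over all genes that fit called 3714. The causes were not tested. Depth is unknown, so how far it limits Cyp2a4 and Cyp2a22 at their low Con levels cannot be given.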
